A study of Mus musculus with 2 samples.

Results

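In single-cell RNA sequencing of MC38 tumors, 260 of 25402 droplets kept after filtering carried the transcripts of a macrophage together with transcripts of the tumor cells. They were chosen by raw counts of unique molecular identifiers (UMIs, each standing for 1 captured transcript). A droplet had to hold at least 500 genes and 1000 UMIs with at most 15% mitochondrial UMIs. The macrophage gate asked for at least 5 UMIs of C1qa, C1qb and C1qc together, at least 3 of Tyrobp and 0 of the T cell genes Cd3e, Cd3g and Trac. The tumor gate asked for at least 3 UMIs of Krt8, Krt18 and Rhox5 together. Of the 260 double-gated droplets, 135 came from the Lmo7+/+ library and 125 from the Lmo7-/- library.

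MC38 is a colon carcinoma cell line of C57BL/6 mice. It was grown under the skin of female mice 6 to 8 weeks of age that were wild type (Lmo7+/+, labelled WT) or lacked Lmo7 in the whole body (Lmo7-/-, labelled KO), and live cells sorted from the tumors were loaded on a 10x Genomics chip. The tumor cells themselves carried no Lmo7 deletion in either group. There was 1 library per genotype, and the number of mice behind each library was not given, so no comparison between genotypes had a replicate and none was tested. The files held 16208 droplets with 98582479 UMIs for Lmo7+/+ and 15163 droplets with 80648345 UMIs for Lmo7-/-. All intervals below are 95% intervals that cover counting error only.

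Tumor-associated macrophages take up dying and living tumor cells, and the cargo is broken down in lysosomes. C1qa, C1qb and C1qc encode the chains of complement C1q, which tissue macrophages secrete, and Tyrobp encodes the signalling adaptor DAP12 of myeloid cells. Krt8 and Krt18 encode the paired keratins of simple epithelia, and Rhox5 is an X-linked homeobox gene of the reproductive tract that is switched on in many tumor lines. In droplet sequencing, a barcode can hold transcripts of more than 1 cell when cells share a droplet, when free RNA enters it, or when a cell has engulfed another, and the counts do not record which.

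The tumor gate was in effect a Rhox5 gate. Krt8 had 0 UMIs in the double-gated droplets of both libraries, and Krt18 had 0 in Lmo7+/+ and 1 in Lmo7-/-. Rhox5 had 905 UMIs in Lmo7+/+ and 824 in Lmo7-/-, with at least 1 in each of the 260 droplets. As a description of what the gates chose, the median per droplet was 6 and 5 UMIs of Rhox5, 10 and 9 of C1qa and 8 and 8 of Tyrobp. Over all deposited droplets, Krt8 had 186 UMIs in 19 droplets of Lmo7+/+ and 12 UMIs in 12 droplets of Lmo7-/-, and Krt18 had 146 UMIs in 14 droplets and 10 in 10. Rhox5 had 27389 UMIs in 6521 droplets and 20021 UMIs in 4947. The keratin markers were therefore at or near 0 in these tumors, against the name of the gate, and without Rhox5 it kept 0 droplets in both libraries. On the mm10 build, Rhox5 lies on chromosome X at 37804842-37808876 (plus strand), Krt8 on chromosome 15 at 101996698-102004482 (minus strand) and Krt18 on chromosome 15 at 102028180-102032027 (plus strand).

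Among 19 other genes of epithelial or tumor cells, 6 were at 0 in the double-gated droplets of Lmo7+/+ and 5 in those of Lmo7-/-. Krt19, Krt7, Krt20 and Cldn4, which mark glandular epithelium, had 0 or 1 UMI. Epcam, an epithelial adhesion molecule, was at 1.79 counts per 1000000 UMIs (CPM) in Lmo7+/+ and 1.71 in Lmo7-/-. Krt14, a basal keratin, was at 15.4 and 39.0 CPM. All 16 macrophage genes outside the gate were present, among them Apoe, a lipid carrier (969 and 1219 CPM), Ctss, a lysosomal protease (1535 and 1875 CPM), and Csf1r, the receptor for macrophage colony-stimulating factor (202 and 192 CPM). Their levels summed to 6051 and 7054 CPM, against 21021 and 27336 CPM in macrophage-only droplets and 133 and 109 CPM in tumor-only droplets.

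Those 2 reference groups came from the same libraries. Macrophage-only droplets passed the macrophage gate with 0 tumor gate UMIs (3087 in Lmo7+/+ and 3618 in Lmo7-/-). Tumor-only droplets passed the tumor gate with 0 UMIs of C1qa, C1qb, C1qc, Tyrobp and the T cell genes (1279 and 1077).

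Lmo7 itself was read in the double-gated droplets at 12.9 CPM in Lmo7+/+ (interval 9.03 to 17.8) and 11.6 CPM in Lmo7-/- (7.62 to 16.8). Tumor-only droplets had 17.5 and 13.1 CPM. Macrophage-only droplets had 0.632 CPM from 12 UMIs in Lmo7+/+ and 0.667 CPM from 13 UMIs in Lmo7-/-. At this depth Lmo7 did not separate the macrophages of the genotypes, and its level in double-gated droplets lay with the tumor cells, so it was no check of the labels.

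In Lmo7+/+, 135 of 3514 macrophage-gated droplets passed the tumor gate (3.84%, exact binomial interval 3.23 to 4.53%). In Lmo7-/-, 125 of 3993 did so (3.13%, interval 2.61 to 3.72%). The difference, Lmo7-/- minus Lmo7+/+, was -0.711 percentage points (Newcombe interval -1.56 to 0.119), an interval that includes 0. These intervals treat droplets as independent and leave out the spread between tumors, so none is a test of genotype. The value moved with the gate. With 2 tumor gate UMIs the difference was -1.21 points (-2.17 to -0.276) and with 5 it was -0.753 (-1.46 to -0.0676). With 10 it was -0.117 (-0.521 to 0.268). Without Scrublet-marked droplets it turned to 0.170 (-0.352 to 0.682). Taken over the tumor-gated droplets, the order turned, with 4.24% of 3186 in Lmo7+/+ and 5.21% of 2397 in Lmo7-/- (difference 0.978 points, interval -0.138 to 2.14). Of all kept droplets, the double-gated ones made up 0.997% and 1.05%.

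**Figure D1:**
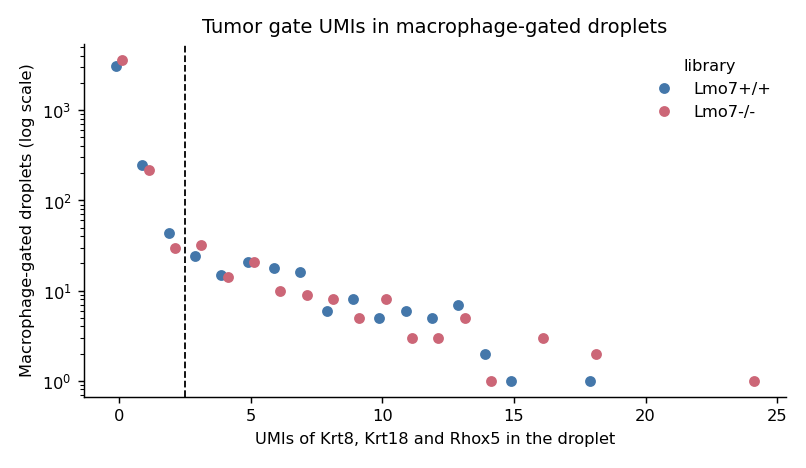
Number of macrophage-gated droplets (vertical axis, log scale) by their UMIs of Krt8, Krt18 and Rhox5 (horizontal axis), for the Lmo7+/+ library (blue) and the Lmo7-/- library (red); the dashed line is the gate. Most droplets had 0 (3087 and 3618), 248 and 220 had 1, and a long tail reached 18 and 24 UMIs.

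The counts fell from 248 and 220 droplets with 1 tumor gate UMI to 44 and 30 with 2, and then lay at 24 and 32 droplets with 3, 15 and 14 with 4 and 21 and 21 with 5. The highest droplet had 18 UMIs in Lmo7+/+ and 24 in Lmo7-/-. Of the tumor-gated droplets without T cell UMIs, 92.3% of 3099 in Lmo7+/+ and 90.7% of 2300 in Lmo7-/- held 0 to 4 UMIs of C1q, 80 and 55 droplets held 5 to 9, 53 and 53 held 10 to 29, and 106 and 105 held 30 or more. The last of these bins has no upper limit, and C1q is part of the macrophage gate. The order of the counts is therefore a description only.

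Tumor gate UMIs were also found in host cells outside the macrophage gate. Droplets gated as T cells (at least 3 UMIs of Cd3e, Cd3g and Trac, under 5 of C1q and under 3 of Tyrobp) reached 3 tumor gate UMIs in 3.28% of 427 in Lmo7+/+ (interval 1.80 to 5.44%) and 1.47% of 612 in Lmo7-/- (0.675 to 2.77%). Their median depth was 2422 and 2402.5 UMIs, against 5864 and 5086 in macrophage-gated droplets. In Lmo7+/+ the interval of the T cell share contains the macrophage share of 3.84%, and in Lmo7-/- the macrophage share of 3.13% lies above it. Droplets gated as dendritic cells reached the gate in 6.74% of 89 (interval 2.51 to 14.1%) and 14.5% of 76 (7.45 to 24.4%). Their median depths were 5124 and 5520 UMIs. That gate asked for at least 3 UMIs of Flt3, Xcr1, Clec9a, Itgae and Zbtb46 together. The monocyte gate below asked for at least 3 of Chil3, Ly6c2 and F10. Both asked for under 5 of C1q and 0 of the T cell genes, with no limit on Tyrobp. Endothelial droplets had to hold Pecam1 and Cdh5. When each droplet was thinned to 1500 UMIs, at least 1 tumor gate UMI remained in 3.84% of macrophage-gated droplets in Lmo7+/+ and 3.44% in Lmo7-/-. The thinned share was 6.78% and 3.12% in T cells, 4.55% and 10.7% in dendritic cells, 4.07% and 6.29% in monocytes, and 55.0% and 57.0% in tumor-only droplets. In endothelial cells it was 5.08% of 59 in Lmo7+/+ and 0 of 45 in Lmo7-/- (interval 0 to 7.87%). The 53 and 122 macrophage-gated droplets under 1500 UMIs were left out of the thinned share. So were 88 of the 427 and 131 of the 612 T cell droplets, a larger part of their group. The thinned shares of the 2 groups are therefore not from equally filtered droplets. After thinning, the macrophage share in Lmo7+/+ was below the T cell share, and in Lmo7-/- it lay within the interval of the T cell share (1.76 to 5.09%).

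The same count was made for other pairs of cell types, now allowing T cell UMIs in the macrophage gate and macrophage gate UMIs in the T cell gate. Macrophage and tumor transcripts met in 140 of 3638 macrophage droplets in Lmo7+/+ (3.85%) and 131 of 4171 in Lmo7-/- (3.14%). T cell and tumor transcripts met in 18 of 529 T cell droplets (3.40%, interval 2.03 to 5.32%) and 13 of 732 (1.78%, interval 0.949 to 3.02%). T cell and macrophage transcripts met in 60 of 529 T cell droplets (11.3%) and 93 of 732 (12.7%). The mixed T cell and tumor droplets had median depths of 16875.5 and 15218 UMIs, near those of the macrophage and tumor droplets (20781.5 and 17436).

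Double-gated droplets were deeper than either reference group by their medians. Their UMIs ranged from 4314 to 60864 with a median of 20747 in Lmo7+/+, and from 2916 to 39627 with a median of 17436 in Lmo7-/-. Macrophage-only droplets had medians of 5605 and 4898 UMIs, and tumor-only droplets 12364 and 12764. The sum of the medians of the 2 reference groups was 17969 UMIs in Lmo7+/+ and 17662 in Lmo7-/-. With all tumor-gated droplets outside the macrophage gate in place of the tumor-only ones, the sum was 19918 and 18947.5. Genes per droplet followed the same order, with medians of 5100 and 4582 in double-gated, 2215 and 1972.5 in macrophage-only and 3782 and 3768 in tumor-only droplets. The mitochondrial share had medians of 6.82% and 6.56%, between macrophage-only droplets (5.76% and 5.43%) and tumor-only droplets (7.4% and 7.27%).

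**Figure D2:**
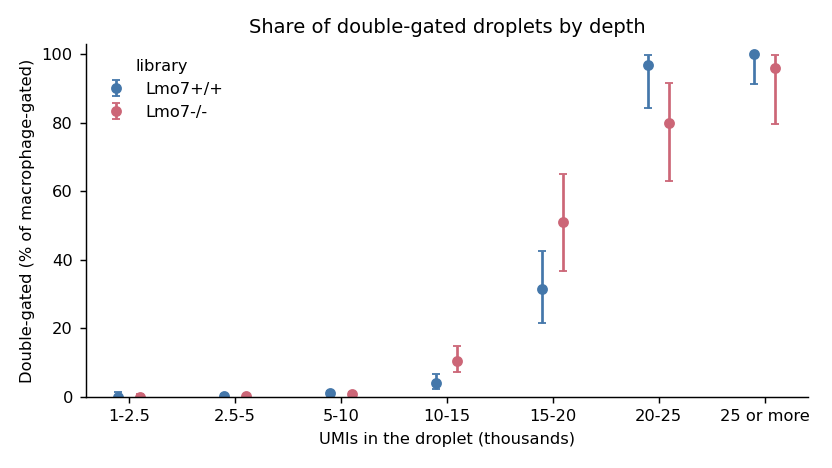
Share of macrophage-gated droplets that passed the tumor gate (vertical axis, percent) by the UMIs in the droplet (horizontal axis, in units of 1000), with exact binomial 95% intervals for counting error; blue, Lmo7+/+; red, Lmo7-/-. The share was 0% below 2500 UMIs and reached 100% and 96.0% at 25000 UMIs or more.

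Below 2500 UMIs, 0 of 274 macrophage-gated droplets in Lmo7+/+ and 0 of 523 in Lmo7-/- were double-gated, with exact binomial intervals of 0 to 1.34% and 0 to 0.703%. From 5000 to 10000 UMIs the share was 1.11% of 1625 and 0.847% of 1653. It was 4.08% and 10.5% from 10000 to 15000 UMIs, 31.3% and 50.9% from 15000 to 20000, and 97.0% and 80% from 20000 to 25000. At 25000 UMIs or more, 41 of 41 and 24 of 25 were double-gated. A gate of a fixed number of UMIs is passed more easily by a deep droplet, and depth and tumor transcripts could not be separated here.

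To measure how much of each droplet came from the tumor cells, genes restricted to 1 reference group were used. They had at least 50 CPM in their own reference and at most 1/20 of that level in the other, in both libraries, and the gate genes were left out. This gave 146 tumor-restricted and 309 macrophage-restricted genes. The double-gated droplets played no part in choosing them. The most abundant tumor-restricted genes were Sox9, a transcription factor of stem and progenitor cells, Col6a1 and Col6a3, chains of collagen VI, Fscn1, an actin-bundling protein, Cald1, an actin-binding protein, Dclk1, Tm4sf1, Serpinh1, the collagen chaperone, Sox4 and the gelatinase gene Mmp9. Sox9 was at 706 and 595 CPM in double-gated droplets, 1099 and 872 CPM in tumor-only droplets and 37.6 and 31.7 CPM in macrophage-only droplets. Tm4sf1, a tetraspanin-like surface protein, was at 493 and 467 CPM, against 619 and 567 CPM in tumor-only and 15 and 12.7 CPM in macrophage-only droplets. The macrophage-restricted genes were led by H2-Aa, H2-Ab1, H2-Eb1 and Cd74 of antigen presentation, Ctss, Apoe, Fcer1g, Il1b, Lyz2 and Ctsc. H2-Aa was at 2898 and 3991 CPM in double-gated droplets, 9650 and 13381 CPM in macrophage-only droplets and 255 and 476 CPM in tumor-only droplets.

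By this measure most RNA in the double-gated droplets was that of tumor cells. The estimated tumor share had a median of 71.1% (interquartile range 59.3 to 82.0%) in Lmo7+/+ and 74.4% (62.6 to 82.6%) in Lmo7-/-, and ran from 5.60 to 98.1% and from 8.06 to 96.8%. The same estimate gave 2.21% and 1.78% in macrophage-only droplets, which is the floor of the measure, and 99% in tumor-only droplets of both libraries. A share under 20% was found in 3 of 135 and 6 of 125 double-gated droplets, 20 to 40% in 10 and 7, 40 to 60% in 22 and 16, 60 to 80% in 63 and 53, and 80% or more in 37 and 43.

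The size of each side was set against the droplets of that kind alone. Both groups of each pair had passed the same gate, so like sizes are in part given by the choice of droplets and are a description. The tumor part had a median of 14607 UMIs in Lmo7+/+ and 12010 in Lmo7-/-, against 11723 and 12010 in tumor-only droplets. The macrophage part had a median of 5518 and 4570 UMIs, against 5605 and 4775 in macrophage-only droplets. Both parts reached the 10th percentile of their reference in 98 of 135 and 94 of 125 droplets. Across droplets, the sizes of the tumor and macrophage parts had a Spearman correlation of 0.127 in 135 droplets of Lmo7+/+ and 0.0633 in 125 of Lmo7-/-. These are descriptions within 1 library each, and the points share its depth and its free RNA.

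**Figure D3:**
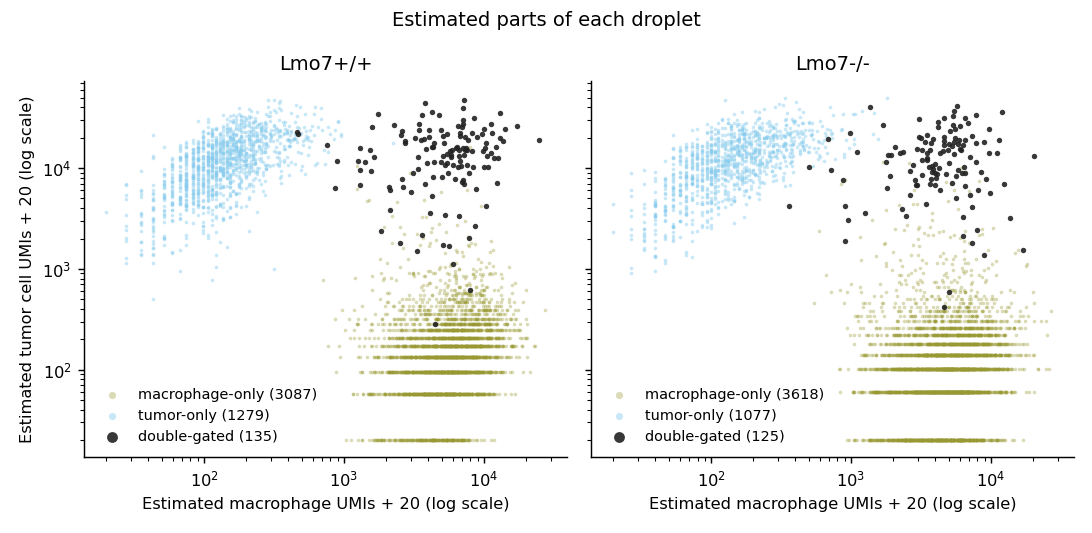
Estimated tumor cell UMIs (vertical axis) against estimated macrophage UMIs (horizontal axis) per droplet, both with 20 added and on log scales, for each library; points are macrophage-only (olive), tumor-only (light blue) and double-gated droplets (black). The macrophage and tumor parts of double-gated droplets had medians of 5518 and 14607 UMIs in Lmo7+/+ and 4570 and 12010 in Lmo7-/-. Both parts reached the 10th percentile of their reference in 98 of 135 and 94 of 125 droplets.

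Around the gate's threshold the tumor share climbed in steps. Its median was 4.93% and 3.55% in macrophage-gated droplets with 1 tumor gate UMI, 33.9% and 49.0% with 2, 54.0% and 67.0% with 3, 64.4% and 73.1% with 4, 72.0% and 74.8% with 5 to 9, and 79.6% and 82.7% with 10 or more. The gate therefore left out some droplets whose estimated tumor share lay in the range of the double-gated ones. Whether they were of the same kind was not tested. An estimated tumor share of 20% or more was found in 132 and 119 double-gated droplets, in 73 and 64 droplets with 1 or 2 tumor gate UMIs, and in 60 and 104 with 0. Together these were 265 of 3514 macrophage-gated droplets in Lmo7+/+ (7.54%, interval 6.69 to 8.46%) and 287 of 3993 in Lmo7-/- (7.19%, interval 6.41 to 8.03%). The difference was -0.354 points (interval -1.55 to 0.828).

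Scrublet, a program that scores how closely a droplet resembles simulated pairs of droplets from the same library, marked 2.90% of the kept droplets in Lmo7+/+ and 2.60% in Lmo7-/-. It marked 97 of 135 double-gated droplets (71.9%, interval 63.5 to 79.2%) and 75 of 125 (60%, interval 50.9 to 68.7%). In contrast, it marked 0.551% and 1.05% of macrophage-only droplets and 0 of 1279 and 0 of 1077 tumor-only droplets. The marked double-gated droplets had median tumor shares of 69.2% and 71.4%, and those left unmarked 87.8% and 83.0%, with the references unchanged. Scrublet reads the same transcripts as the gates, so its marks are no separate measurement of cell number. No droplet was removed for its mark in the values given here. Barcodes that occurred in both libraries numbered 279, and they took 0 double-gated droplets in Lmo7+/+ and 2 in Lmo7-/-.

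The levels of nearly all genes in the double-gated droplets lay close to a weighted sum of the 2 reference groups. The pooled tumor share was 71.8% in Lmo7+/+ and 73.3% in Lmo7-/-, and these shares were used as weights. They came from the restricted genes of the same droplets, so the fit of those genes was in part set by the weights. Of 9741 genes in Lmo7+/+ and 9319 in Lmo7-/- with an expected count of at least 20 or an observed count of at least 20, 99.7% and 99.5% were within 2-fold of the mixture. Across genes (which are not independent replicates), log2(CPM + 1) in the double-gated droplets had a Pearson correlation with the mixture of 0.992 and 0.990, with macrophage-only droplets of 0.797 and 0.772, and with tumor-only droplets of 0.845 and 0.839. Among 9234 genes measured in both libraries, 3 (0.0325%) were at least 2-fold above the mixture in both, and 1 (0.0108%) was at least 2-fold below in both. The gene below was Gm26885, a gene model named here after its values were seen, with 5 UMIs in Lmo7+/+ where the mixture gave 25.6 and 11 in Lmo7-/- where it gave 28.2. Of 6639 genes compared with the references directly, 4594 lay between the references in both libraries.

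**Figure D4:**
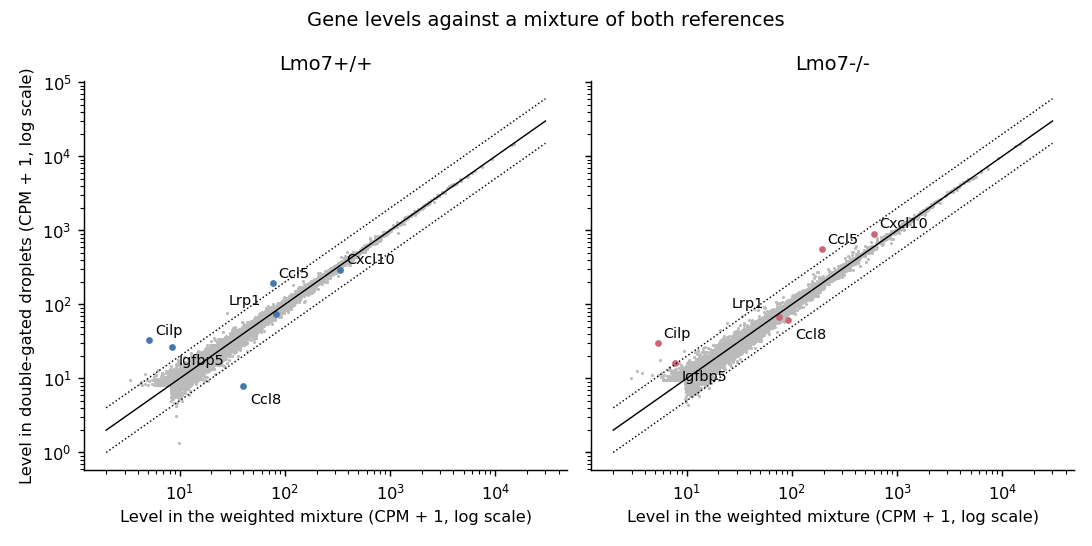
Level of each gene in the double-gated droplets (vertical axis) against its level in the mixture of macrophage-only and tumor-only droplets (horizontal axis), both in CPM + 1 on log scales, per library; the solid line marks equal levels, the dotted lines 2-fold differences, and named genes are colored. The genes follow the solid line, with Cilp, Igfbp5 and Ccl5 above the upper dotted line in both libraries.

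The 3 genes above the mixture had most or much of their UMIs in single droplets. Ccl5, a chemokine of T cells, NK cells and activated macrophages, was at 194 CPM in Lmo7+/+ against 76.6 in the mixture (log2 1.34) and at 560 CPM in Lmo7-/- against 192 (log2 1.54). One droplet held 48.2% and 69.6% of its UMIs, and without it the log2 values were 0.41 and -0.15. Cilp, a cartilage matrix protein, had 97.7% and 55.2% of its UMIs in 1 droplet, and Igfbp5, which binds insulin-like growth factors, 87.3% and 91.4%. Without that droplet Igfbp5 was below the mixture in both libraries (log2 -1.19 and -2.36), and Cilp was below in Lmo7+/+ (log2 -1.94) and above in Lmo7-/- (log2 1.58). The same droplet of Lmo7+/+ (21901 UMIs) was the richest in Cilp and Igfbp5, and in H19 and Enpp2, named below. In Lmo7-/- the droplet richest in Ccl5 (34970 UMIs) was also the richest in Acod1, Nos2, Tnf and Cxcl2. Their single-droplet effects are therefore not separate observations.

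Ccl8, a monocyte-attracting chemokine of resident-like macrophages, was at 6.80 CPM (19 UMIs) in Lmo7+/+ against 39.3 in the mixture (log2 -2.53) and at 59.6 CPM in Lmo7-/- against 90.3 (log2 -0.60). In macrophage-only droplets it was at 136 and 332 CPM. In Lmo7-/-, 1 droplet held 32.4% of its UMIs, and without it the log2 value was -1.14. Of 10 genes of resident-like macrophages, 6 had enough counts, and 5 of these, Ccl8 included, were below the mixture in both libraries, as were 32.0% of all genes. Their median log2 value was -0.06 and -0.44, where the median of all genes was -0.01 and -0.02. Selenop, a selenium transport protein, was at 176 and 127 CPM against 179 and 174 in the mixture, and Mrc1, the mannose receptor, at 43.3 and 36.8 against 45.3 and 41.8.

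Genes of engulfment lay within 2-fold of the mixture, more of them below it than above. Of 40 genes for phagocytic receptors, bridging molecules and the engulfment machinery, 37 in Lmo7+/+ and 35 in Lmo7-/- had enough counts, and none was 2-fold above or below the mixture in either library, where 99.7% and 99.5% of all genes were within 2-fold. Their median log2 value was -0.05 and -0.19, against -0.01 and -0.02 for all genes. Of 35 measured in both libraries, 18 were below the mixture in both and 6 above in both, where 32.0% of all genes were below and 22.8% above in both. Of the 16 macrophage genes outside the gate, some of which are on both lists, 9 were below in both and 2 above in both. Lower levels were therefore not particular to the engulfment genes. Lrp1, a receptor for calreticulin on target cells, was at 73.8 CPM in Lmo7+/+ (interval 64.0 to 84.6) and 66.0 CPM in Lmo7-/- (56.0 to 77.3), against 81.1 and 74.3 CPM in the mixture. Mertk, a receptor for bridged phosphatidylserine, was at 27.6 and 21.0 CPM against 32.3 and 28.0. Sirpa, the inhibitory receptor for CD47, was at 64.5 and 48.4 CPM against 69.6 and 67.5 (log2 -0.11 and -0.48). The actin regulator Rac1, which both cell types expressed, was at 909 and 967 CPM against 875 and 921.

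Genes of the lysosome, where engulfed cells are broken down, were within 2-fold as well. Of 24 genes, 23 had enough counts in each library, none was past 2-fold, as for over 99% of all genes, and the median was 0.02 in Lmo7+/+ and -0.10 in Lmo7-/-. Ctsb, a cysteine protease, was at 1090 and 1017 CPM against 1070 and 1168 in the mixture. Psap, the precursor of sphingolipid activators, was at 2293 and 2355 CPM against 2325 and 2535. Lipid-associated macrophage genes had medians of -0.07 and -0.08, with Trem2, a lipid receptor, at 44.0 and 34.3 CPM against 47.7 and 42.5, and Gpnmb at 132 and 116 against 164 and 99.9. Of 12 such genes with enough counts in Lmo7+/+, 1 was 2-fold above the mixture, Fabp4 (10.0 CPM against 4.91, log2 1.03). One droplet held 28.6% of its UMIs, and without it the log2 value was 0.56. In Lmo7-/- 0 of 11 were past 2-fold. Macrophage genes outside the gate had medians of -0.04 and -0.13 over 16 genes.

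Of 16 genes of the cell cycle, 10 were above the mixture in both libraries and 0 below in both, where 22.8% of all genes were above and 32.0% below in both. The median of 16 proliferation genes was 0.06 in Lmo7+/+ and 0.18 in Lmo7-/-, and 0 of them were past 2-fold. Top2a, a DNA topoisomerase of dividing cells, was at 408 CPM in Lmo7+/+ against 414 in the mixture and at 531 CPM in Lmo7-/- against 424. Ccnb1, the mitotic cyclin, was at 94.9 and 108 CPM against 67.6 and 79.5. Genes of hypoxia and glycolysis had medians of 0.07 and -0.14 over 12 genes, with Pgk1 at 2030 and 2044 CPM against 2035 and 2167. Immediate early and heat shock genes, which respond to tissue dissociation, had medians of 0.02 and 0.20.

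Xist, the long RNA of the inactive X chromosome, was made by the female host cells and nearly absent in the tumor cells. It was at 56.2 CPM in Lmo7+/+ (interval 47.8 to 65.7) and 38.6 CPM in Lmo7-/- (31 to 47.4) in double-gated droplets, against 237 and 223 CPM in macrophage-only and 1.37 and 0.703 CPM in tumor-only droplets. These levels were below those of the mixture, 67.9 and 60.1 CPM (log2 -0.27 and -0.64). Malat1, another nuclear RNA, was at 517 and 495 CPM against 578 and 517.

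Markers of most other cells were low in the double-gated droplets. Of 9 T cell markers, 6 were at 0 in Lmo7+/+ and 8 in Lmo7-/-, where the gate itself set 3 of them to 0, and the list summed to 5.37 and 3.43 CPM, mostly Cd4. All 4 red blood cell markers were at 0. NK cell markers summed to 2.51 and 2.57 CPM, neutrophil markers to 14.7 and 22.7 CPM, B cell markers to 3.58 and 3.86 CPM, mast cell markers to 2.51 and 3.0 CPM and endothelial markers to 19 and 25.3 CPM. Monocyte markers summed to 101 and 79.7 CPM, against 379 and 295 CPM in macrophage-only and 13.9 and 17.4 CPM in tumor-only droplets. Dendritic cell markers summed to 35.8 and 35.6 CPM, against 35.2 and 81.8 CPM in macrophage-only droplets. Of the 3 dendritic genes with enough counts in Lmo7+/+, 2 were at least 2-fold above the mixture, where 99.7% of all genes were within 2-fold, the chemokine receptor genes Xcr1 (11.8 CPM against 5.22, log2 1.18) and Ccr7 (7.52 against 3.21, log2 1.23), with 24.2% and 76.2% of their UMIs in 1 droplet. Without that droplet Ccr7 had 5 UMIs left and was below the mixture (log2 -0.82). In Lmo7-/- Xcr1 was at 20.6 CPM against 15.9 (log2 0.37). The fibroblast genes Col1a1 (453 and 578 CPM) and Col3a1 (432 and 614 CPM) were high, but tumor-only droplets had them too (498 and 523 CPM, 456 and 536 CPM), so they did not tell fibroblasts from MC38 cells here.

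Gene levels were also taken by chromosome. For each of 20 chromosomes, the median log2 ratio to macrophage-only droplets was taken over its genes. It was -0.34 in Lmo7+/+ and -0.35 in Lmo7-/- for chromosome 7 in tumor-only droplets, and -0.25 and -0.25 in double-gated droplets. For chromosome 19 it was 0.27 and 0.31 in tumor-only and 0.20 and 0.25 in double-gated droplets. Both ratios share the macrophage-only droplets, so their likeness is no result of its own.

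Between the genotypes, genes induced by interferon gamma were higher in the double-gated droplets of Lmo7-/-. Of 10 such genes, 9 were at least 2-fold higher, where 1.28% of 10554 genes with at least 20 UMIs over both libraries were 2-fold higher and 1.48% were 2-fold lower. The median log2 difference of the list was 1.39, against -0.05 for all genes. Cxcl10, a chemokine for CXCR3-bearing T cells, was at 291 CPM in Lmo7+/+ (272 to 312) and 901 CPM in Lmo7-/- (863 to 940), a log2 difference of 1.63 (1.51 to 1.75). Cxcl9, which binds the same receptor, was at 249 and 602 CPM. Gbp2, a guanylate-binding protein of cell-autonomous defense, was at 172 and 510 CPM (log2 difference 1.57, interval 1.42 to 1.73). The GTPase genes Igtp (49.8 and 147 CPM) and Irgm1 (79.5 and 226 CPM) were higher too.

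Both reference groups showed the difference as well. The median of the 10 genes was 0.65 in macrophage-only droplets, with 1 gene at least 2-fold higher, where 1.77% of all genes were, and 1.21 in tumor-only droplets, with 7 at least 2-fold higher, where 1.11% of all genes were. Gbp2 was at 196 and 304 CPM in macrophage-only droplets and at 165 and 411 CPM in tumor-only droplets. Against the mixture of its own library, the list had a median of -0.03 in Lmo7+/+ and 0.34 in Lmo7-/-, and 0 genes were past 2-fold in either. Whether the difference in double-gated droplets exceeded that of the 2 references together was not tested. Without the droplets above the 99th percentile of UMIs, 6 of the 10 genes were past 2-fold.

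**Figure D5:**
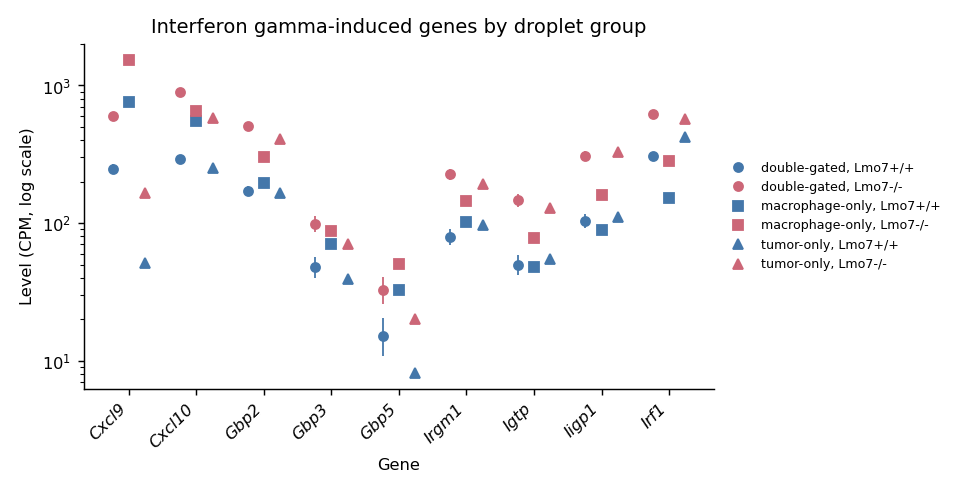
Level of the 9 interferon gamma-induced genes at least 2-fold higher in Lmo7-/- (CPM, log scale) in double-gated droplets (circles, with Poisson 95% intervals), macrophage-only droplets (squares) and tumor-only droplets (triangles) of the Lmo7+/+ (blue) and Lmo7-/- (red) libraries. The red point is above the blue one for each gene in each of the 3 groups.

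Other gene groups had smaller median differences between the genotypes. MHC class II genes had a median log2 difference of 0.42 (6 of 7 genes above 0, 0 past 2-fold), against 0.39 in macrophage-only droplets and 0.77 in tumor-only droplets. H2-Ab1 was at 2894 CPM in Lmo7+/+ and 3875 CPM in Lmo7-/-. Of 11 inflammatory genes, 3 were at least 2-fold higher, where 1.28% of all genes were, with a median of 0.40. They were Ccl5, Nos2, the inducible nitric oxide synthase (24 and 57.8 CPM), and Il18bp, the soluble inhibitor of interleukin-18 (27.6 and 57.0 CPM). Without the droplet richest in the gene in each library, Ccl5 fell under 2-fold (log2 0.76, interval 0.54 to 0.99), while Nos2 was at 1.25 and Il18bp at 1.04. In macrophage-only droplets the inflammatory list had a median of 0.37, with 5 of 12 genes at least 2-fold higher. In tumor-only droplets its median was 0.09, with 2 of 12 genes at least 2-fold higher and 1 lower. Of 37 engulfment genes, 1 was at least 2-fold higher, near the 1.28% of all genes, the Fc receptor gene Fcgr4 (114 and 238 CPM, log2 difference 1.06), which was also higher in macrophage-only droplets (log2 1.18). The median of the engulfment list was -0.11, and Lrp1 had a log2 difference of -0.16 (interval -0.47 to 0.15). Lysosomal genes had a median of -0.16 in double-gated, 0.16 in macrophage-only and -0.19 in tumor-only droplets. Type I interferon-stimulated genes had a median of 0.25, -0.37 and 0.06 in the same groups. In double-gated droplets 0 genes of either list were past 2-fold.

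Among genes with at least 100 UMIs over both libraries, the highest in Lmo7-/- relative to Lmo7+/+ were Ccl8 (log2 difference 3.13, interval 2.43 to 3.90), Acod1, which makes itaconate (2.15), Ubd, an interferon-induced ubiquitin-like protein (1.99), Enpp2, which makes lysophosphatidic acid (1.98), and the complement protease gene C1s1 (1.91). All were also higher in macrophage-only droplets: Ccl8 (log2 1.29), Acod1 (1.18), Ubd (2.05), Enpp2 (1.13) and C1s1 (1.40). In tumor-only droplets the log2 difference was 1.24 for Ubd, 1.16 for Enpp2, 0.76 for Ccl8 and 0.69 for C1s1. Acod1 was at 19 CPM in Lmo7+/+ and 84.4 CPM in Lmo7-/-, but 1 droplet held 71.1% of its UMIs in Lmo7-/-, and with the top droplet of each library left out the log2 difference was 0.67. The lowest were H19, an imprinted long RNA (-1.66), the linker histone gene Hist1h1c (-1.44), Lgi2 (-1.44), the oxysterol receptor gene Gpr183 (-1.40) and Fcrls (-1.31). In macrophage-only droplets H19 (-1.86), Gpr183 (-1.05) and Fcrls (-0.98) were lower too. Lgi2 was at 0.60 in macrophage-only and -0.28 in tumor-only droplets. H19 was at 75.9 and 24 CPM, with 74.5% of its UMIs in 1 droplet of Lmo7+/+, and without the top droplets its log2 difference was -0.21 (interval -0.85 to 0.41). Hist1h1c was at 47.6 and 17.6 CPM with no such droplet, and its level in the reference groups differed little (log2 0.15 in macrophage-only and -0.10 in tumor-only droplets).

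Genes outside the range of both references differed from them by little. Of 6639 genes, 198 were above the higher reference in both libraries, 1 of them by 2-fold (Cilp), and 192 were below the lower reference in both, 0 by 2-fold. After Cilp, Igfbp5 and Ccl5, the most elevated were Plk1, a mitotic kinase (45.5 and 61.3 CPM against 36.1 and 46.6 in tumor-only droplets), and Zfp35 (18.3 and 21.9 CPM). The most reduced were Sntb2 (21.8 and 20.6 CPM against 28.2 and 25.8 in macrophage-only droplets), Spred2 (36.9 and 34.3 CPM against 47.0 and 42.0 in the lower reference), Ramac, Trak1 and Phf3.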

How the data were processed

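Single-cell RNA sequencing of 2 libraries, 1 per genotype, was analysed from UMI counts per gene and droplet deposited by the authors (32285 genes). The submitters' processing notes name Cell Ranger 2.1.1 and mm10, while the matrix header gives software version 3.0.0. Droplets were filtered and gated as stated, summed per library and scaled to CPM, and 0 sample columns were left unused. With 1 library per genotype no test was made. Intervals are exact binomial, exact Poisson or Newcombe, and fold changes have exact intervals from the binomial split of counts. Genes needed 20 UMIs. Gene positions came from GENCODE annotation of mm10.

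Members and gene lists were chosen with earlier results of these data known. Named genes were the gate genes, examples of each list, the 10 most abundant restricted genes of each set, the 5 highest and 5 lowest genotype ratios among genes with at least 100 UMIs, and the 5 genes furthest above and below both references. Doublets were scored with Scrublet in scanpy 1.11.5, marked and kept. The results of some single genes are not reported here. Fibroblast-gated droplets could not serve as a comparison because tumor-only droplets carried the same collagen genes. Python 3.11.15, numpy 2.4.6, scipy 1.17.1, pandas 2.3.3, R 4.3.3 and edgeR 4.0.16 (TMM scaling) were used, and the calculations were tested on simulated data. For the tumor share, simulated droplets were drawn from the summed profiles of the same reference groups at a single depth. They tested the arithmetic, and left out variation between cells and in depth.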

Additional observations from a re-analysis of the deposited data

Results flagged for a closer look

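Among 265 list and named genes, 14 lay on opposite sides of the mixture in the 2 libraries, with counting intervals that left out the mixture level in each, and 12 of them are given here. The difference between the libraries was not tested. No share of all genes is given for this criterion, so the count does not set these genes apart. As Lmo7-/- minus Lmo7+/+ on the log2 scale, the gap was 0.799 for Cxcl10, 0.635 for Irgm1 and 0.511 for Irf1, all interferon gamma-induced. Among inflammatory genes it was 0.785 for Tnf and 0.828 for Cxcl2. It was 0.210 for Jun and 0.317 for Junb, immediate early genes, and 0.518 for Gpnmb. The gap was negative for the hypoxia genes Slc2a1 (-0.490), Ndrg1 (-0.615) and Egln3 (-0.507). Hist1h1c had the widest gap of these 12, -1.46, from 0.63 in Lmo7+/+ and -0.83 in Lmo7-/-. Single droplets bore on some of them. In Lmo7-/-, 1 droplet held 21.8% of the Tnf UMIs, and without it Tnf was at -0.03 against the mixture, no longer on the opposite side. The same droplet held 25.6% of the Cxcl2 UMIs (0.28 without it), and another of that library held 12.2% of the Gpnmb UMIs (0.03 without it). In Lmo7+/+, leaving out the droplet richest in the gene took Slc2a1 from 0.17 to 0.04 against the mixture and Egln3 from 0.17 to 0.08.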

How the results depend on the processing

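The share of macrophage-gated droplets that were double-gated stayed lower in Lmo7-/- under 12 of 13 alternatives, by -1.21 to -0.117 points, but 2 of these, the gates without Krt8 or without Krt18, kept the same droplets and could not differ. It turned to 0.170 points when Scrublet-marked droplets were left out (interval -0.352 to 0.682). The counting interval left out 0 with a gate of 2 UMIs (-2.17 to -0.276) and of 5 UMIs (-1.46 to -0.0676). The median tumor share in Lmo7+/+ moved to 66.9% with a gate of 2 UMIs, 74.5% with 5, 79.8% with 10 and 88.6% without Scrublet-marked droplets, which were then left out of the references too. In Lmo7-/- the same settings gave 71.3%, 78.1%, 83.8% and 84.0%, a macrophage gate of 10 C1q and 5 Tyrobp UMIs gave 70.2%, and restricted genes at no more than 1/50 in the other reference gave 64.5%. The 291 genes past 2-fold between genotypes became 562 with a gate of 10 UMIs, 533 without Scrublet-marked droplets, 102 at a minimum of 50 counts and 590 at a minimum of 10. The cause was not tested, except that a count minimum changes how many genes are counted. The number of interferon gamma-induced genes past 2-fold ran from 6 to 9 over 14 alternatives. TMM scaling gave 159 genes higher and 131 lower, against 135 and 156. A tumor gate without Rhox5 left 0 droplets and gave no value. Alternatives that left out shared barcodes or the deepest droplet, used the estimated share as the gate or changed the reference groups, and all those for the interferon genes, were chosen after seeing the data. No paired analysis was possible because the labels give 1 library per genotype. Depth limits genes of few UMIs, and the number of mice per library is not given in the sources used here.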
